A study of Mus musculus with 5 samples.

Results

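The elastic fibre and fibulin genes described here are 10 genes, chosen by name: elastin (Eln), the fibrillins Fbn1 and Fbn2, the fibulins Fbln1, Fbln2, Fbln5, Efemp1 (fibulin-3) and Efemp2 (fibulin-4), and the microfibril-associated glycoproteins Mfap4 and Mfap5. All 10 were listed in each of the 5 count matrices, out of 29818 genes in all, and the rule names the genes without a threshold on measured values. The series holds single-cell transcriptomes of growth plate and epiphyseal cells freed by collagenase from femoral and tibial cartilage of 5 C57BL/6J littermates, 1 library per pup. Pups 1 and 2 were labelled wild type (WT). Pups 3, 4 and 5 were labelled mutant, that is, heterozygous for a conditional knock-in of Trpv4 R594H induced by Col2a1-Cre, a recombinase under a collagen promoter active in chondrocytes. Trpv4 encodes a calcium-permeable channel, and the comparison by label asks what the activated channel does to expression. Whether the WT littermates carried the Cre transgene was not stated. The labels give the age as postnatal day 5 and the series' design text as postnatal day 3.

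Elastic fibres consist of a core of cross-linked elastin laid down on a scaffold of fibrillin microfibrils. Fibulin-4 and fibulin-5 help to place tropoelastin and the cross-linking enzyme lysyl oxidase on that scaffold, while MFAP4 and MFAP5 bind microfibrils. The fibres give recoil to arteries, ligaments and skin. Cartilage matrix is mainly collagen and proteoglycan, but fibrillin microfibrils are found in it and in the perichondrium, the fibrous sheath around the cartilage.

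Of 84382 cells in the files, 82516 passed the filters, with 13814 to 19133 per pup. The upper limit of 6000 genes per cell removed 142 and 181 cells of pups 1 and 2 and 23, 6 and 12 of pups 3 to 5. Median depth was 8521 and 9261 unique molecular identifiers (UMIs) per cell under the WT label and 6000 to 7016 under the mutant label, so depth moved with label. Xist was detected in 89.8% and 88.4% of cells of pups 3 and 4 and in at most 0.174% of cells of the other pups, so the mutant label, unlike the WT label, holds pups of both kinds. Pairs of libraries shared 3 to 7 cell barcodes. Cells were clustered without the 10 genes and without a list of 25 elastic fibre assembly genes, and 40 of 46 clusters were named from markers. The 6 unnamed clusters held 12157 cells, on average 15.0% of a pup's cells, and are left out of the levels by class. They held on average 19.4% of Fbn2, 20.2% of Efemp1, 8.90% of Eln and 6.66% of Fbln2 UMIs. Articular, resting, proliferating and hypertrophic chondrocytes were all found by their markers, resting chondrocytes being the largest class with 24913 cells, beside classes from outside cartilage. Among the resting chondrocytes is a cluster of 2478 cells led by the cell cycle genes Top2a, Prc1, Spc25 and Ckap2l. Clusters could take a name whose mean scaled marker score lay within 0.5 of the best. The largest hypertrophic cluster (2724 cells, led by Smpd3 and Panx3) scored 1.74 on proliferating and 1.59 on hypertrophic markers. That of 2478 cells and the resting clusters of 5964, 2187 and 374 cells also scored higher on proliferating than on resting markers. Levels by zone depend on these names. Levels are given in CPM, a gene's share of the summed UMIs of a class in a pup on the usual counts-per-total scale, as mean ± SD over the 5 pups, for the 14 classes with at least 20 cells in every pup. Macrophages and erythroid cells, which should make little of these proteins, are given as reference levels; where their UMIs of these genes come from (free RNA, doublets or expression) was not tested, and the 2 classes differ, with Eln at 52.0 and 342 CPM. The study's methods say that tendon and ligament were dissected away, so the 7793 cells called tendon or ligament cells here carry that name from their markers alone, among them Tnmd, Scx and Kera. Levels are compared between classes for 1 gene, never between genes, since transcript length was not taken into account.

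Promoter windows of RefSeq (GRCm38.p6) were matched for 6 of the 10 genes. Shown are 150 bases, from 160 to 11 bases before the start, for 4 of them. They are sequence context for genes that moved in opposite directions between cell classes. Fbln1 and Fbln5 were higher in perichondrial cells than in resting chondrocytes, and Efemp1 and Efemp2 were lower. The bases just after the start matched an annotated transcript of the gene for the Fbln1 and Efemp1 windows shown, but not for those of Fbln5 and Efemp2. Capitals mark GC boxes (GGGCGG or its complement CCGCCC), and each sequence runs 5′ to 3′ on the gene's strand.
Fbln1, chr15:85205789-85205938, plus strand: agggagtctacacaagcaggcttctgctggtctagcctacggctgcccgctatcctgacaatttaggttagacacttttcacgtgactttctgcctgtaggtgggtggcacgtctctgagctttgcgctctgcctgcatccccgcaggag
Fbln5, chr12:101819130-101819279, minus strand: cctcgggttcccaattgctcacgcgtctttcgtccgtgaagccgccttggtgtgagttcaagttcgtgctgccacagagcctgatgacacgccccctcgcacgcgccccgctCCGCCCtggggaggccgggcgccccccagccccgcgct
Efemp1, chr11:28853045-28853194, plus strand: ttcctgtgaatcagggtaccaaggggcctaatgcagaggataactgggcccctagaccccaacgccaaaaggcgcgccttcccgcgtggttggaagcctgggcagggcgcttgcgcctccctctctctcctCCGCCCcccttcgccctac
Efemp2, chr19:5473786-5473935, plus strand: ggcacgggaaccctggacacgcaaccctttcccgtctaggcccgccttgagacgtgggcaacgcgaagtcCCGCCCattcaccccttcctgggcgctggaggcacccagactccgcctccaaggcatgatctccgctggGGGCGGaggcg
The Fbln1 stretch shown holds no GC box and the Efemp2 stretch shown holds 2. Fbln1, Fbln5 and Efemp2 have more than 1 window each, for different starts: the other Fbln1 window holds 2 GC boxes, the other Fbln5 window 0, and the other Efemp2 windows 5 and 7. A GC box occurred in 35.7% of all 32851 promoter windows, on either strand, each window being longer than the stretches shown. No window of the 6 genes held TATAAA, which occurred in 13.6% of all windows. Such matches describe letters and name no binding site.

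Elastin, the core protein, was highest in a class that made up 1.05% of cells, the pericytes or smooth muscle cells (Eln, chr5:134702593-134747323, minus strand, GRCm38). Its level there was 10801, 14911, 5751, 3282 and 1174 CPM in pups 1 to 5. The pups spanned a wide range, and those labelled WT were the 2 highest. Endothelial cells followed with 1986 ± 798 CPM and perichondrial cells with 1798 ± 678 CPM, and the range over pups of each class overlapped that of the next. In perichondrial cells Eln stood at 1110, 1295, 2659, 1565 and 2360 CPM. Connective tissue fibroblasts held 911 ± 284 CPM and tendon or ligament cells 732 ± 523 CPM, the latter with pup 4 at 1654 CPM and the other 4 pups at 392 to 635 CPM. Within cartilage the level was 229 ± 65.0 CPM in articular and 126 ± 59.9 CPM in resting chondrocytes. Proliferating (43.3 ± 13.3 CPM) and hypertrophic chondrocytes (17.1 ± 8.09 CPM) lay at or under the 52.0 ± 26.2 CPM of macrophages. Erythroid cells carried 342 ± 128 CPM, so that 4 of the 12 other classes exceeded both macrophages and erythroid cells in every pup. By mean share of all Eln UMIs, perichondrial cells came first with 29.1 ± 13.9%, and the pericytes or smooth muscle cells held 18.9 ± 19.6%. The order did not hold in every pup: the highest share of the latter class was 48.1%, above the perichondrial maximum of 46.0%.

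**Figure D1:**
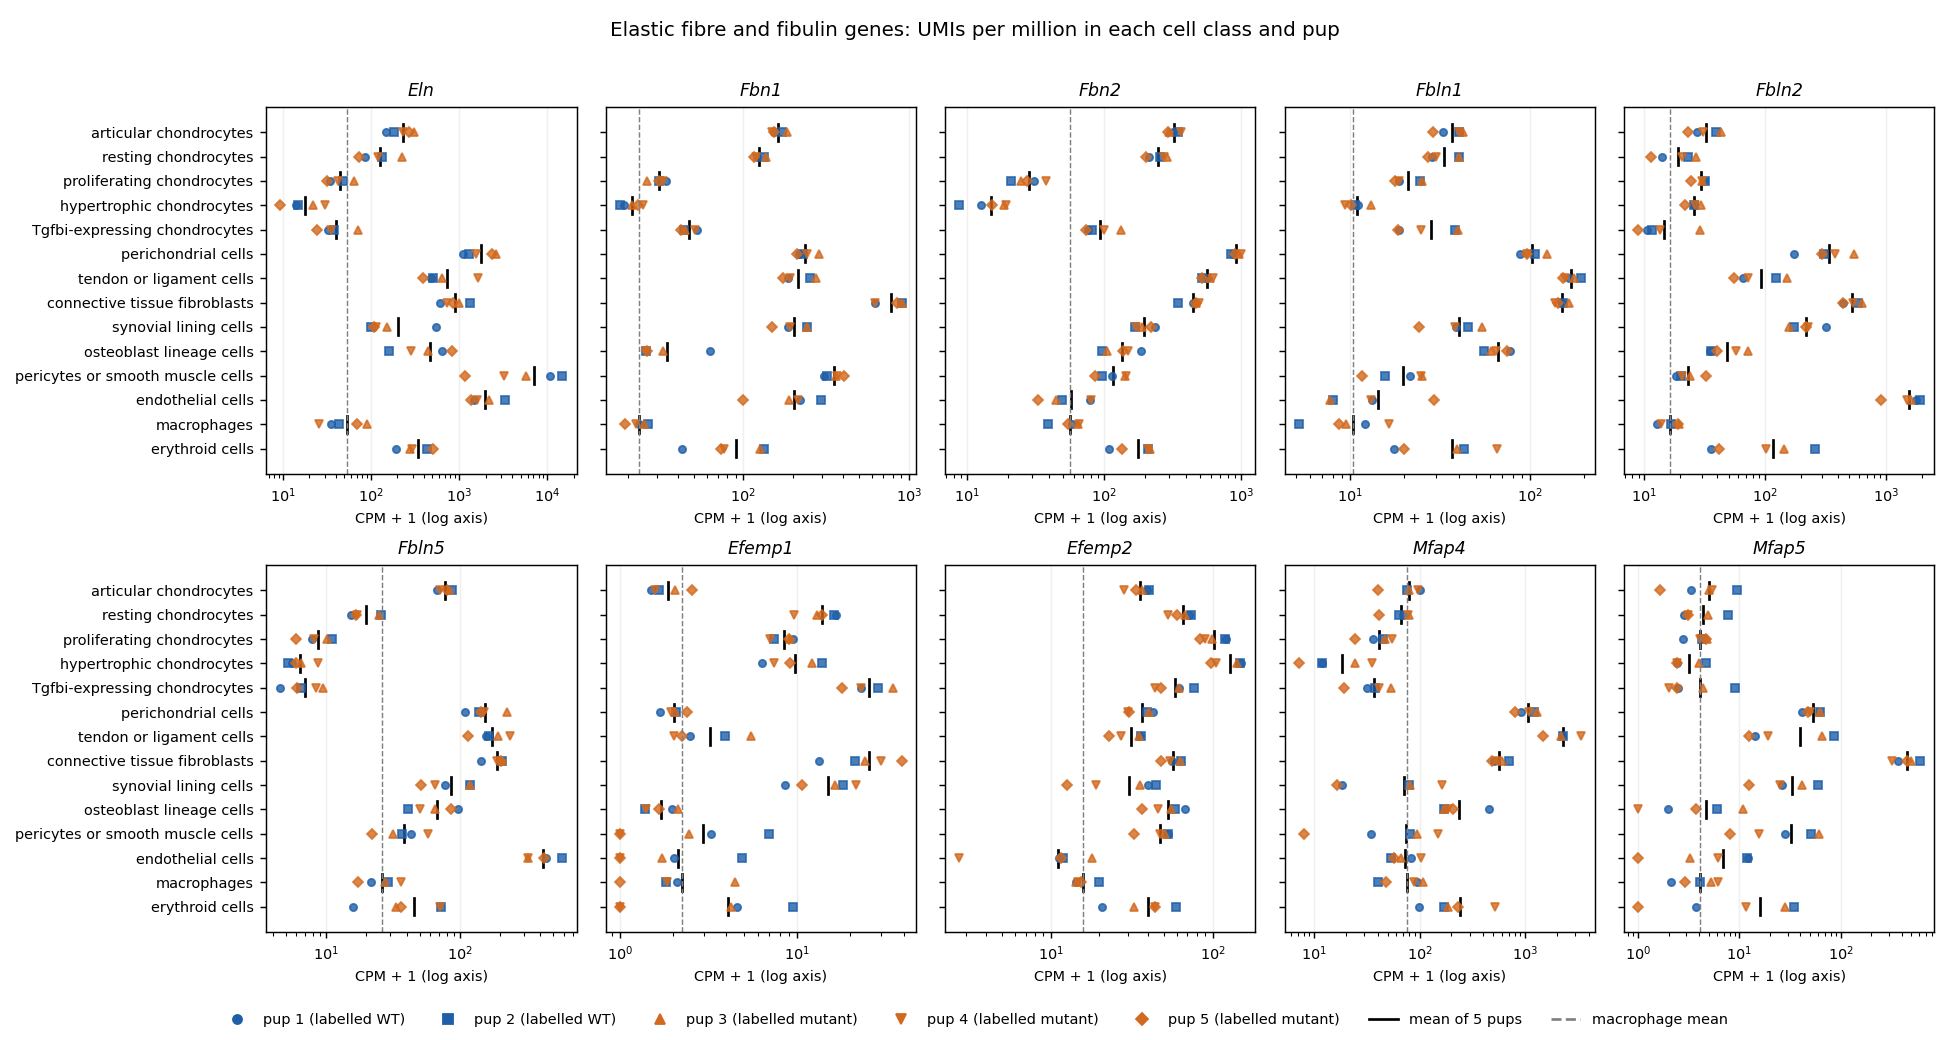
CPM + 1 of the 10 genes on a log axis, by cell class, with a point for each of the 5 pups, a black bar at their mean and a dashed line at the macrophage mean. Mfap5 in connective tissue fibroblasts and Fbln2 in endothelial cells stand clear of their next class in all pups.

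The fibrillins form the microfibril backbone, and their leading classes differed. Fbn1, the gene mutated in Marfan syndrome, was highest in connective tissue fibroblasts (chr2:125300594-125507993, minus strand), at 627, 909, 909, 624 and 855 CPM. Every one of these values exceeded the highest value of the next class, the pericytes or smooth muscle cells with 353 ± 40.5 CPM. Perichondrial, tendon or ligament, endothelial and synovial lining cells then lay between 202 and 236 CPM and overlapped. Fbn2, a fibrillin prominent in development, led in perichondrial cells (chr18:58008623-58210487, minus strand), at 871, 839, 962, 1005 and 911 CPM. No pup overlapped tendon or ligament cells, which followed with 564 ± 44.9 CPM, and macrophages held 55.4 ± 10.5 CPM. In a sample of 2000 UMIs per cell, 72.3 ± 1.18% of perichondrial cells had an Fbn2 UMI against 6.18 ± 1.26% of macrophages, and without that thinning the shares were 90.2 ± 2.01% and 15.3 ± 3.41%. The median depth was 5449 UMIs per perichondrial cell and 7585 per macrophage, and 3 cells of all classes were dropped for holding fewer than 2000. Both fibrillins were low in the growth zones. Fbn2 stood at 27.4 ± 6.43 CPM in proliferating and 13.9 ± 4.34 CPM in hypertrophic chondrocytes, under macrophages. Fbn1 stood at 29.9 CPM in proliferating chondrocytes, above the 22.3 CPM of macrophages in all 5 pups, and at 20.2 CPM in hypertrophic chondrocytes.

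Among the fibulins, Fbln1, a binding partner of fibronectin, was highest in tendon or ligament cells (chr15:85205949-85286535, plus strand) at 167 ± 15.9 CPM. Connective tissue fibroblasts overlapped them with 149 ± 10.5 CPM, and perichondrial cells followed without overlap at 101 ± 14.2 CPM. Fbln2, a fibulin of vessel walls and basement membranes, peaked in endothelial cells (chr6:91212455-91272540, plus strand) at 1784, 1937, 1625, 1514 and 918 CPM. The lowest of these pups lay above the highest of the connective tissue fibroblasts, which held 529 ± 86.7 CPM, and perichondrial cells held 342 ± 137 CPM. Fbln5 (chr12:101746565-101819055, minus strand) was likewise highest in endothelial cells, at 419 ± 107 CPM, with no overlap with the fibroblasts at 189 ± 26.4 CPM. Chondrocytes other than the articular class held less Fbln5 than macrophages, at 5.38 ± 1.36 to 18.9 ± 4.86 CPM against 25.4 ± 7.23 CPM.

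The 2 fibulins of the EFEMP subfamily were distributed differently. Efemp2, fibulin-4, which elastic fibre formation requires, was the 1 gene of the 10 with its highest levels in the growth zones (chr19:5473954-5482517, plus strand). Hypertrophic chondrocytes held 150, 146, 142, 103 and 96.3 CPM, proliferating chondrocytes 119, 118, 98.7, 88.3 and 82.7 CPM, and resting chondrocytes 70.1, 73.0, 66.7, 52.4 and 59.0 CPM. In each pup the level rose from articular to resting to proliferating to hypertrophic cells, with 34.6 ± 4.80 CPM in the articular class. At 2000 UMIs per cell, 21.7 ± 4.69% of hypertrophic chondrocytes had an Efemp2 UMI against 2.84 ± 1.10% of macrophages; unthinned shares were 89.0 ± 7.04% and 9.87 ± 2.04%, at a median of 24141 UMIs per hypertrophic cell. Efemp1, fibulin-3 (chr11:28853204-28926743, plus strand), was highest in 2 classes that overlapped, with 24.6 ± 9.65 CPM in connective tissue fibroblasts and 24.6 ± 6.55 CPM in Tgfbi-expressing chondrocytes. Resting chondrocytes held 12.9 ± 2.86 CPM and 36.5 ± 8.76% of all Efemp1 UMIs. Articular chondrocytes had 40 Efemp1 UMIs among 7799 cells (0.869 ± 0.434 CPM), and macrophages held 1.25 ± 1.299 CPM.

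**Figure D2:**
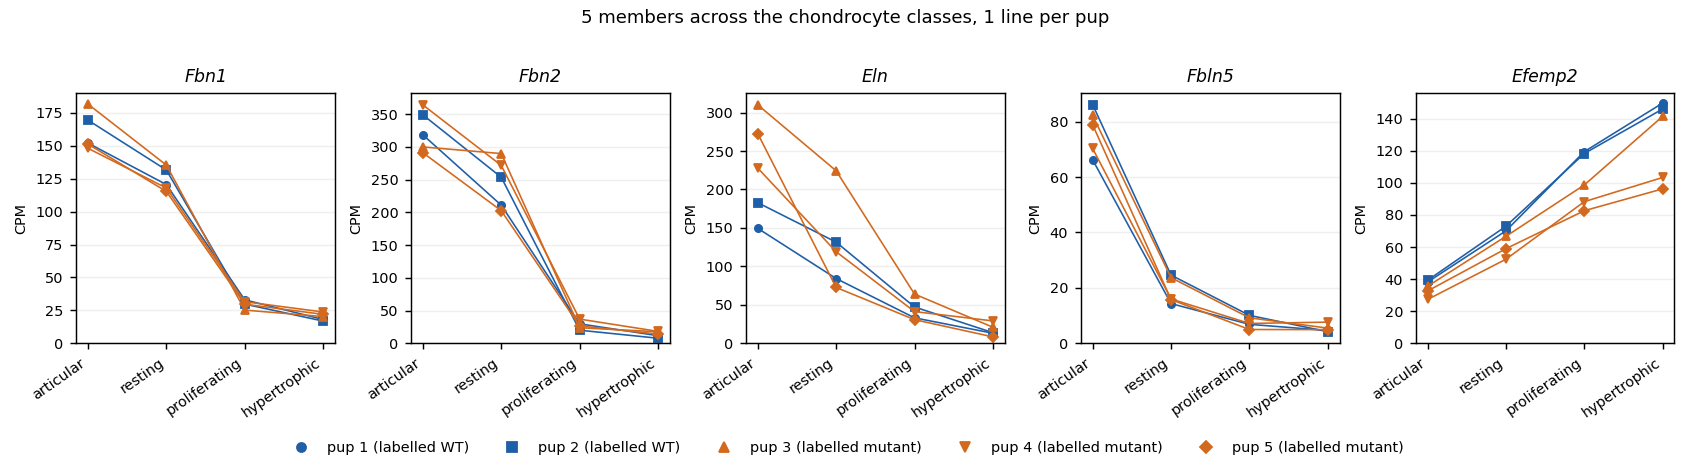
Levels in CPM of 5 genes in articular, resting, proliferating and hypertrophic chondrocytes, with 1 line per pup. Efemp2 climbs towards the hypertrophic class in all 5 pups, while Eln, Fbn1, Fbn2 and Fbln5 are lowest in the proliferating and hypertrophic classes.

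The microfibril-associated glycoproteins were those with the largest share of UMIs in 1 class. Mfap4 was highest in tendon or ligament cells (chr11:61485431-61488900, plus strand), at 2213, 2270, 2179, 3372 and 1474 CPM. All 5 pups lay above perichondrial cells, which held 1065 ± 207 CPM, and these above connective tissue fibroblasts at 567 ± 88.7 CPM. Tendon or ligament cells held 39.7 to 63.8% of a pup's Mfap4 UMIs while making up 9.32 ± 2.71% of cells. Erythroid cells (241 ± 164 CPM) and macrophages (74.8 ± 29.8 CPM) carried Mfap4 UMIs as well, and 3 of the other 12 classes exceeded both in every pup. Mfap5, which binds fibrillin, led in connective tissue fibroblasts (chr6:122505845-122529290, plus strand), at 364, 611, 496, 320 and 449 CPM. The next class, perichondrial cells, held 51.8 ± 9.33 CPM, and macrophages held 3.09 ± 1.64 CPM. Fibroblasts made up 6.14 ± 3.23% of cells and held 66.3 ± 9.01% of Mfap5 UMIs.

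Classes were not uniform. Perichondrial cells fell into a cluster led by Igfbp3 and Col8a1 (4910 cells) and a cluster led by Aqp1 and Spon2 (3361 cells), with pooled Eln levels of 2566 and 381 CPM, Mfap4 levels of 1510 and 329 CPM, and Fbln2 levels of 485 and 139 CPM. The first of these clusters was the higher one in every pup for Eln, at 1673, 1655, 3565, 2275 and 3415 CPM against 304, 356, 412, 476 and 271 CPM. Within perichondrial cells the tenth of cells richest in Eln held 59.5 to 71.6% of its UMIs. Among articular chondrocytes, a cluster of 241 cells led by Msmp and Stc1 held Eln at 1848 CPM and a cluster led by Cilp and Nos2 at 569 CPM, while the other two held 78.3 and 71.8 CPM. Among the 4 clusters of tendon or ligament cells, that led by Kera, Tnmd and Mfap4 (4511 cells) held Mfap4 at 3685 CPM. The clusters led by Chodl and Cilp, by the cell cycle genes Anln and Kif20b and by the heat shock genes Hspa1b and Hspa1a held 1451, 937 and 479 CPM, under the 1510 CPM of the higher perichondrial cluster. Fbn2 in the Chodl and Cilp cluster (874 CPM) lay between the 2 perichondrial clusters, at 1026 and 728 CPM. Fibroblasts led by Abca8a and Aldh1a2 (764 cells) combined Eln at 2634 CPM, Fbn1 at 1316 CPM, Mfap4 at 1755 CPM and Mfap5 at 912 CPM. Their Fbln5 level of 477 CPM lay above the pooled 430 CPM of endothelial cells. Hypertrophic cells with the highest Col10a1 (295 cells) held Efemp2 at 190 CPM. A cluster of 75 cells led by Mmp9 and Mmp13, counted as hypertrophic, held Fbn1 at 241 CPM against 18.0 CPM in the largest hypertrophic cluster. It scored higher on osteoblast lineage markers (1.62) than on hypertrophic markers (1.34), so its class is uncertain. An unnamed cluster of 342 cells, led by Efemp1 itself and Angpt1, held Efemp1 at 239 CPM. It had 215, 82, 38, 1 and 6 cells in pups 1 to 5.

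**Figure D3:**
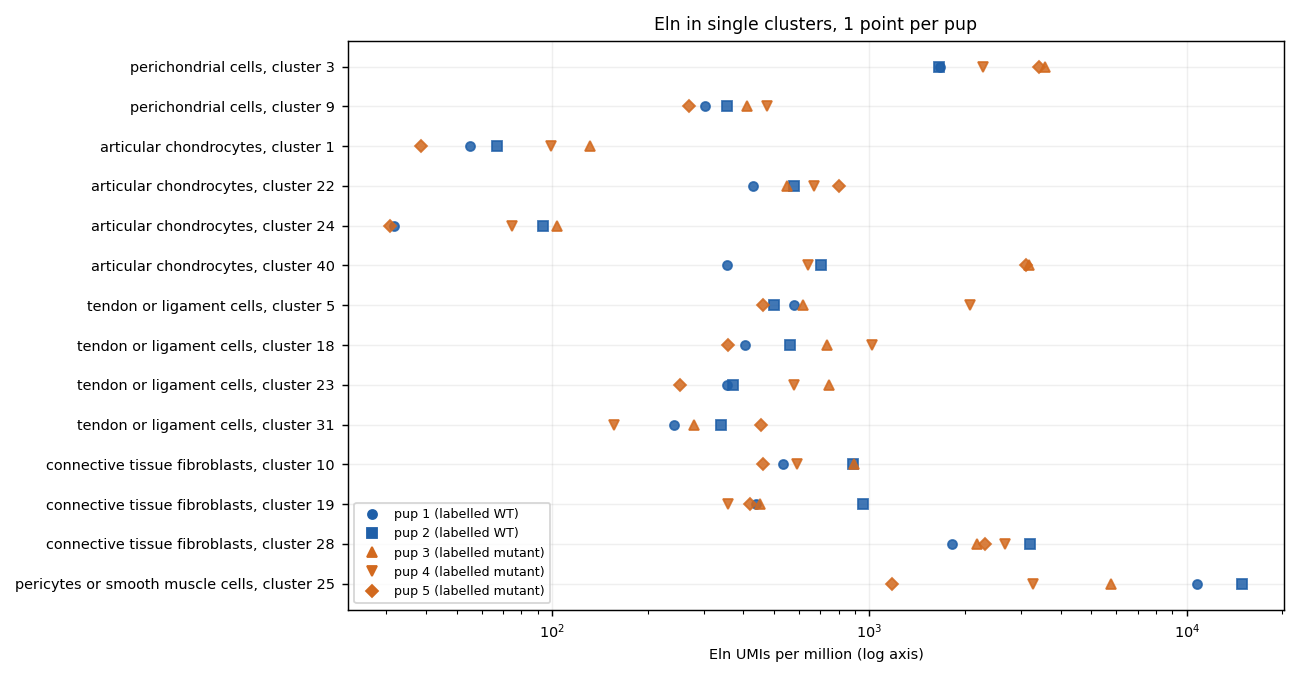
Eln level in CPM, on a log axis, in each cluster of 5 classes, with a point for each pup. The perichondrial cluster 3, led by Igfbp3 and Col8a1, lies above cluster 9, led by Aqp1 and Spon2, in all 5 pups, and in the articular cluster 40, led by Msmp and Stc1, pups 3 and 5 lie above the other 3.

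Between classes of the same pups, edgeR's quasi-likelihood test was applied with the pup as a block and with Benjamini-Hochberg adjustment over all genes. Perichondrial cells against resting chondrocytes gave a call for all 10, where 63.8% of 16075 genes were called. There 8 genes rose in the perichondrium and 2 fell, and the direction was the same in 5 of 5 pups for each. Eln rose by 3.86 (SE 0.30) on the log2 scale, adjusted p = 0.000453. Fbln2 rose by 4.21 (SE 0.20), Mfap5 by 4.06 (SE 0.22), Mfap4 by 4.05 (SE 0.12) and Fbln5 by 3.02 (SE 0.13). In resting chondrocytes these 4 stood near the level of macrophages: Fbln2 at 18.2 against 15.3 CPM, Mfap5 at 3.33 against 3.09 CPM, Mfap4 at 65.1 against 74.8 CPM and Fbln5 at 18.9 against 25.4 CPM. The part of that level in the size of these differences was not tested. Fbn2 rose by 1.92 (SE 0.05), Fbn1 by 0.93 (SE 0.05) and Fbln1 by 1.67 (SE 0.05). The 2 genes that fell were Efemp1 (-3.62, SE 0.16) and Efemp2 (-0.84, SE 0.06). Efemp1 stood in perichondrial cells at 1.03 ± 0.261 CPM, from 51 UMIs in all, beside 1.25 CPM in macrophages, so the size of its difference carries the same limit. All 10 calls and directions held in the 13 other settings, but with the gene lists kept among the features the sizes were smaller, at 1.88 for Eln, 2.58 for Fbln2, 2.41 for Mfap5, 2.53 for Mfap4, 1.72 for Fbln5 and 0.51 for Fbn1. Fbn1 was also lower at resolution 0.8 (0.57) and at a mitochondrial limit of 20% (0.60). The median of the 10 log2 differences was 2.47, against -0.01 over all genes.

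Articular against resting chondrocytes gave 7 calls among the 10, where 57.7% of 15774 genes were called. Fbln5 rose by 1.97 (SE 0.09), Eln by 0.84 (SE 0.26), Fbln2 by 0.75 (SE 0.07), Fbn2 by 0.34 (SE 0.10) and Fbn1 by 0.30 (SE 0.03), each higher in 5 of 5 pups. Efemp1 fell (-4.03, SE 0.17) and so did Efemp2 (-0.96, SE 0.04). Mean Eln in articular and resting chondrocytes (229 and 126 CPM) lay under erythroid cells (342 CPM) and above macrophages (52.0 CPM). So did mean Fbln2 (31.8 and 18.2 against 116 and 15.3 CPM). Fbln5 in resting chondrocytes lay under macrophages in every pup, at 18.9 against 25.4 CPM. Fbn1 and Fbn2 in articular chondrocytes exceeded both reference classes in every pup. The part of these levels in the size of the differences was not tested. The higher Eln level came from the clusters at 1848 and 569 CPM, while the other two articular clusters, with 5290 and 1072 of the 7799 cells, held 78.3 and 71.8 CPM, under the 126 CPM of resting chondrocytes. The Eln call was close to the threshold, adjusted p = 0.0483, and was lost in 9 of 13 other settings, among them leaving out any 1 of pups 1 to 4 (adjusted p from 0.0687 to 0.127). That for Fbn2, adjusted p = 0.0321, was lost in 6 of 13, among them leaving out pup 1, 2, 4 or 5 (adjusted p from 0.0716 to 0.0954). Fbln1 (0.09), Mfap4 (0.17) and Mfap5 (0.16) did not pass. Fbln1 passed in 5 of 13 other settings, with 0.32 (adjusted p = 7.92e-05) at a mitochondrial limit of 20%. Mfap4 passed upward with library totals (0.24, adjusted p = 0.0478) and downward with the gene lists kept among the features (-0.35, adjusted p = 0.0358), so no direction is given for it.

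Tendon or ligament cells against perichondrial cells gave 5 calls, where 33.2% of 13939 genes were called. Mfap4 rose by 1.20 (SE 0.18) and Fbln1 by 0.84 (SE 0.06), in 5 of 5 pups, and Efemp1 by 1.26 (SE 0.30), in 4 of 5 pups and at levels near those of macrophages. Fbln2 fell (-1.77, SE 0.21), as did Fbn2 (-0.59, SE 0.04), in 5 of 5 pups. Eln differed by -1.33 (SE 0.47, adjusted p = 0.108), with pup 4 in the opposite direction to the other 4. Without pup 4 it was -1.72 (adjusted p = 0.0311), and with DESeq2 -1.35 (adjusted p = 0.0132). Over the other settings Mfap4 ranged from 0.73 to 2.56 and Fbln1 from 0.33 to 1.21, both called throughout, and Fbn2 from -0.70 to -0.10. At clustering resolution 0.8 the calls for Fbln2 (-1.17), Fbn2 and Efemp1 were lost, and with the gene lists kept among the features that for Fbln2 (-0.26, adjusted p = 0.168). That for Efemp1 was lost in 4 of 13 other settings, also with DESeq2 (adjusted p = 0.0541), with the gene lists kept among the features (adjusted p = 0.0653) and without pup 3 (adjusted p = 0.0783). Fbln5 (0.30) was not called, but passed at 1.57 (adjusted p = 5.76e-08) with the lists kept and at 1.08 (adjusted p = 0.013) at resolution 0.8. Fbn1 (-0.04) was not called either, and passed in the opposite direction at the 20% limit (0.22, adjusted p = 0.0269), at resolution 0.8 (0.36, adjusted p = 4.94e-05) and with the lists kept (0.26, adjusted p = 0.000564). Efemp2 (-0.11) was not called, but passed as lower with library totals (-0.22, adjusted p = 0.0177), at the 20% limit (-0.25, adjusted p = 0.00838) and at resolution 2.5 (-0.22, adjusted p = 0.00992).

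**Figure D4:**
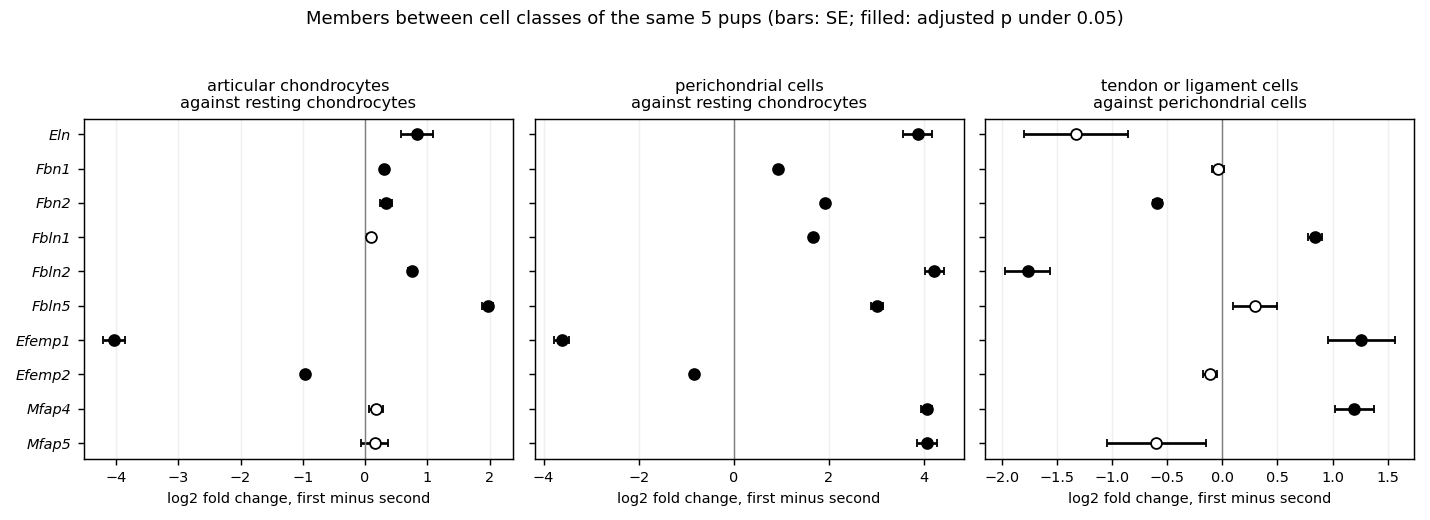
Log2 difference and its standard error for each of the 10 genes in the 3 class contrasts, with filled points for called genes. In perichondrial cells against resting chondrocytes 8 genes lie above 0 and Efemp1 and Efemp2 below it.

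The list of 25 assembly genes, which holds cross-linking enzymes, latent TGF-beta binding proteins, emilins and related proteases, had 13 genes higher and 6 lower among its 19 called in perichondrial cells against resting chondrocytes, where 63.8% of all genes were called. In articular against resting chondrocytes 22 were called, 13 higher and 9 lower, against 57.7% of all genes, and in tendon or ligament cells against perichondrial cells 14 of 24 tested, 5 higher and 9 lower, against 33.2% of all genes. Lox, lysyl oxidase, rose by 3.80 (SE 0.24) in perichondrial cells, to 652 ± 123 CPM from 47.3 CPM in resting chondrocytes. Mfap2, another microfibril-associated glycoprotein, rose by 1.32 (SE 0.05), to 447 ± 49.98 CPM, and Ltbp3 by 0.61 (SE 0.04), to 381 ± 31.4 CPM. Fn1, fibronectin, stood at 1101 ± 96.1 CPM in perichondrial cells (log2 difference -0.45, SE 0.20) and Loxl2 at 334 ± 59.6 CPM (-0.31, SE 0.22), neither of which passed.

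Over the 14 classes, the genes most like each member were ranked by Pearson's r of log2(CPM + 5) over 9419 genes, a description over classes that share libraries. Fbn2 was most like Abi3bp (0.96), Tcea3 (0.96) and Podn (0.96). Mfap4 was most like the tendon gene Tnmd (0.94), followed by Fndc1 (0.93) and Cys1 (0.93). Efemp2 was most like Oat (0.96), Mlec (0.96) and Ncbp2 (0.94), Fbln1 like Il11ra1 (0.96), Pcolce (0.93) and Nfix (0.92), and Mfap5 like Entpd2 (0.95), Arhgap20 (0.94) and Aldh1a2 (0.92). Eln was most like Phldb2 (0.94), Nudt4 (0.93) and Spry4 (0.92), Fbn1 like St3gal2 (0.94), Nfia (0.93) and Mpdz (0.92), and Fbln5 like Pik3c2b (0.95), Prrg3 (0.94) and Sntb2 (0.93). The least close partners were those of Fbln2, namely Dock9 (0.90), Fam174b (0.89) and Mecom (0.88), and of Efemp1, namely Tubb2b (0.83), Sned1 (0.81) and Spsb1 (0.80).

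By label, none of the 10 genes passed edgeR's quasi-likelihood test in any of 6 classes or in all cells, where 0% of genes were called. Nor was any gene of the assembly list called. DESeq2, run as an alternative, called 1 of the 10, Eln, in articular chondrocytes, where it called 0.0231% of genes, and in perichondrial cells, where it called 0.0229%. Without the filter on low counts, edgeR called Eln in both, where it called 0.279% and 0.258% of genes, and Fbln5 in perichondrial cells. The pups labelled mutant and WT come from separate libraries of 1 litter. The depth and Xist differences given above move with the label, and their part in the values below was not tested. A term for Xist is given among the alternatives, but it leaves only pup 5 to stand for the mutant label.

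In perichondrial cells 9 of the 10 genes had a higher mean in the mutant label, and none passed. The median log2 difference over all genes there was 0.0026. Unless stated, values of the 10 genes by label were scaled by library factors, but sums and levels of markers were not. Eln stood at 1071 and 1265 CPM under the WT label against 2693, 1656 and 2359 CPM under the mutant label. The labels did not overlap, and the log2 difference was 0.94 (SE 0.20, adjusted p = 0.628). It was 0.95 (SE 0.16, adjusted p = 0.562) in the Igfbp3 and Col8a1 cluster alone, a comparison added after the data were seen. In the Aqp1 and Spon2 cluster the labels overlapped, with Eln at 304 and 356 against 412, 476 and 271 CPM without library factors. That cluster was not tested alone. In the whole class Fbln5 stood at 104 and 134 against 226, 160 and 144 CPM, without overlap (0.57, SE 0.21, adjusted p = 0.628). Fbn2 stood at 841 and 819 against 974, 1064 and 910 CPM, also without overlap (0.24, SE 0.11, adjusted p = 0.656). Fbln2 overlapped, at 167 and 303 against 555, 400 and 299 CPM (0.83, SE 0.40, adjusted p = 0.681). No overlap was found for 3 of the 10 genes, all higher in the mutant label, and for 26.5% of all genes. Pericyte markers summed to 191 to 237 CPM in perichondrial cells of the WT label and 154 to 204 CPM in the mutant label, with none of the 8 at 0, and perichondrial markers to 100647 to 113748 and 107686 to 134782 CPM.

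In articular chondrocytes Eln stood at 154 and 172 CPM against 294, 243 and 280 CPM, without overlap, and differed by 0.74 (SE 0.12, adjusted p = 0.266). Without the cluster led by Msmp and Stc1, a comparison added after the data were seen, it differed by 0.33 (SE 0.14, adjusted p = 0.648). That cluster held 38.5% and 44.3% of the articular Eln UMIs in pups 3 and 5 and 5.42 to 8.80% in the others. In the pericytes or smooth muscle cells, an added comparison, Eln differed the other way (-1.91, SE 0.71, adjusted p = 0.702), where 0% of 9632 genes were called and 692 had an unadjusted p under 0.05. The difference of the label effect between those cells and perichondrial cells was -3.04 (SE 0.87, adjusted p = 0.863) for Eln, in a test that called 0.0155% of genes. Pup 5 had 39 such cells and pup 2 had 352. The 8 markers of the class did not move together, in CPM without library factors. Acta2, a smooth muscle gene, stood at 5021 and 7702 CPM in the WT label and 4838, 2578 and 2865 CPM in the mutant label, and Cspg4 was also lower in every pup of the mutant label. Rgs5, a pericyte gene, stood at 8657 and 5722 against 8880, 10370 and 13679 CPM, and Abcc9, Kcnj8 and Notch3 were also higher in every pup of the mutant label, while Myh11 and Mcam overlapped. Their part in the Eln difference was not tested.

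Efemp2 had a lower mean in the mutant label in all 7 comparisons, and none passed. In proliferating chondrocytes it stood at 121 and 113 against 98.1, 91.3 and 84.2 CPM (-0.36, SE 0.11, adjusted p = 0.746), with no overlap. Nor did the labels overlap in the other chondrocyte classes tested, tendon or ligament cells and all cells, but they did in perichondrial cells. In the comparisons without overlap, 17.6 to 25.8% of all genes did not overlap either. The other differences ran from -0.35 in hypertrophic to -0.20 in resting chondrocytes. Efemp1 in all cells stood at 12.3 and 10.8 against 8.65, 6.69 and 9.12 CPM (-0.51, SE 0.16, adjusted p = 0.841) and differed by -0.06 without the cluster that it leads, an added comparison. In resting chondrocytes, which do not hold that cluster, Efemp1 stood at 15.8 and 14.2 against 11.8, 9.09 and 13.2 CPM, lower without overlap (-0.40, SE 0.16, adjusted p = 0.822). Over the other settings that difference ran from -1.03 to -0.18. The cluster that Efemp1 leads held 37.0, 19.3, 2.97, 1.74 and 0.578% of the Efemp1 UMIs of pups 1 to 5. In hypertrophic chondrocytes Fbn2 stood at 11.6 and 7.61 against 17.7, 18.6 and 14.3 CPM (0.82, SE 0.21, adjusted p = 0.998), all of them under the level in macrophages. The Fbn2 difference in these cells ran from 0.55 to 1.54 over the other settings. Perichondrial markers in these cells summed to 1961 and 1756 CPM in the WT label and 3032, 2873 and 1761 CPM in the mutant label, with 8 of 9 higher on average in the mutant label and none at 0, and their part in the Fbn2 values was not tested.

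**Figure D5:**
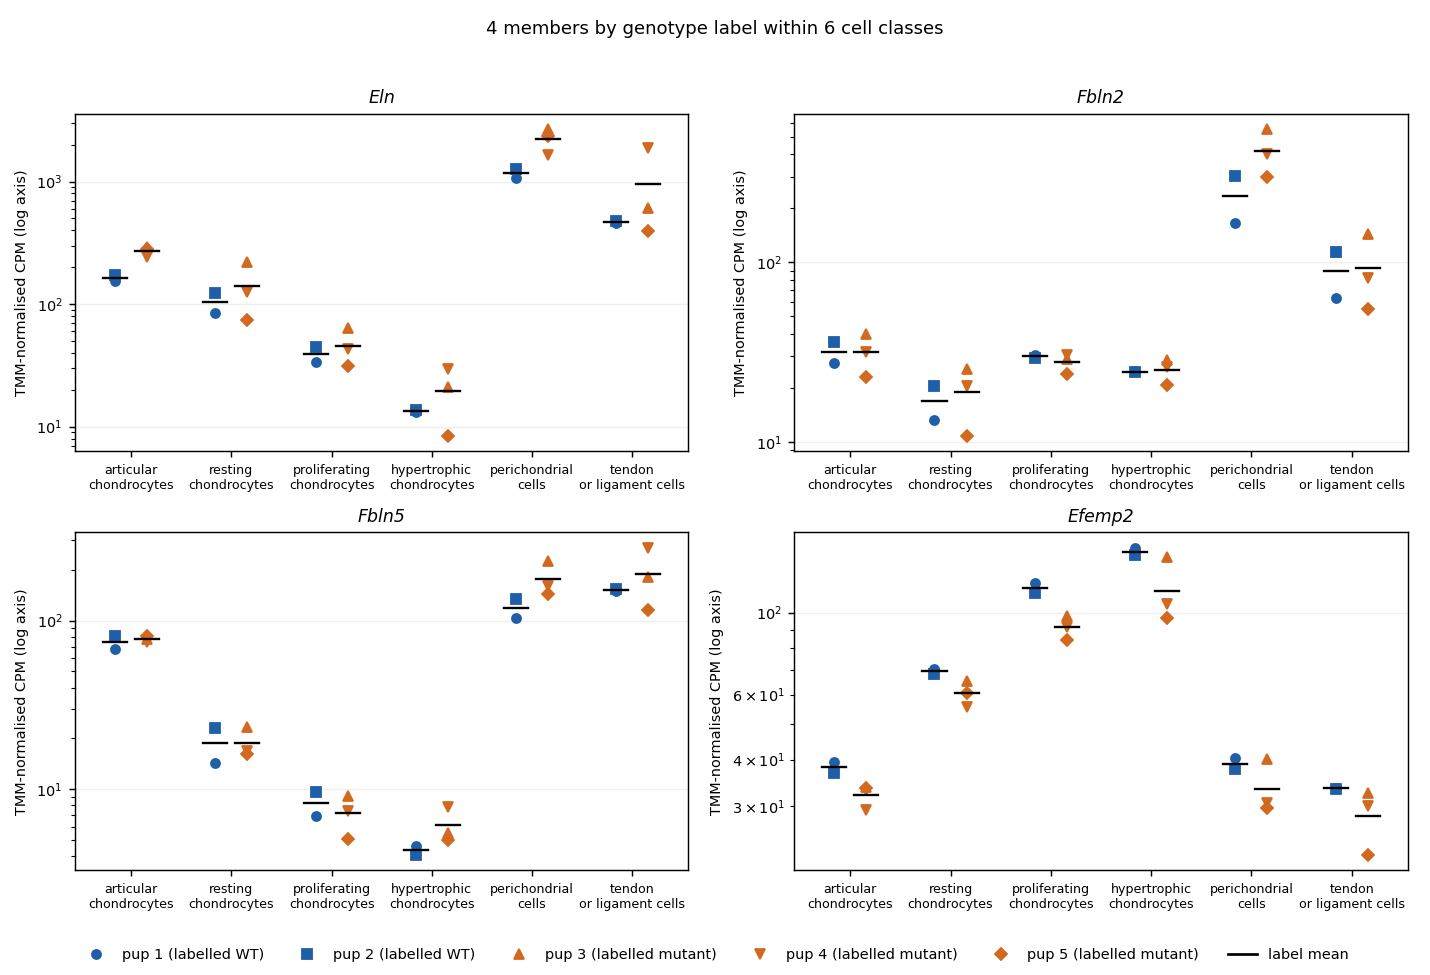
CPM of 4 genes, scaled by library factors and on a log axis, by label in 6 classes, with a point for each pup and a bar at the label mean. The Eln points of the mutant label lie above those of the WT label in perichondrial cells and articular chondrocytes. The Efemp2 points of the mutant label lie below those of the WT label in every class shown but perichondrial cells.

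No overlap between labels was found for 2 of the 10 genes in articular (25.8% of all genes), resting (23.1%) and proliferating chondrocytes (23.3%), for 4 in hypertrophic chondrocytes (17.6%), for 1 in tendon or ligament cells (20.6%) and for 2 in all cells (22.5%). The median log2 difference of the 10 genes by label was 0.23 in perichondrial cells (0.032 to 0.40 over the other settings). In the other classes and all cells it lay between -0.001 and 0.20 (-0.46 to 0.45 over the other settings). Over all genes the median lay between -0.017 and 0.0026. The difference of the label effect between perichondrial cells and resting chondrocytes was not called for any gene by edgeR (552 genes had an unadjusted p under 0.05). Its value was 0.72 (SE 0.14, adjusted p = 1) for Fbln2 and 0.53 (SE 0.11, adjusted p = 1) for Fbln5, the only 2 members with an unadjusted p under 0.05, and DESeq2 called none of the 10. Without the filter on low counts, edgeR called both, Fbln2 at 0.75 (adjusted p = 6.79e-10) and Fbln5 at 0.56 (adjusted p = 0.000609), where 0.145% of genes were called. Over the other settings the values ran from 0.46 to 0.89 for Fbln2 and from 0.22 to 0.67 for Fbln5.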

How the data were processed

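Per the labels and the study's methods, single cells from 5 pups were captured on the BD Rhapsody system, and the authors' pipeline assigned cell barcodes and counted UMIs per gene; the deposited files hold raw UMI counts, 1 matrix per pup, with genome build mm10 in the submitters' processing notes. The pipeline's version is not given in the sources used here. From the counts, cells with 200 to 6000 genes and at most 10% mitochondrial UMIs were kept, Pearson residuals (theta 100) of 3000 features were reduced to 50 components, and cells were clustered by the Leiden algorithm (leidenalg 0.10.2, 20 neighbours, resolution 1.5) in Python 3.11.15. Clusters were named from marker lists, with no doublets removed in the main analysis. The 10 genes, the marker lists and the assembly list were chosen with earlier results of these data known. All 10 genes are named in the text, and for the assembly list the 5 genes with the highest CPM in perichondrial cells, a selection that takes no account of transcript length, and for each member the 3 genes most like it among those with at least 20 CPM in 1 class.

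UMIs were summed per pup and class and tested with edgeR 4.0.16 (TMM factors, filterByExpr, robust glmQLFit, Benjamini-Hochberg adjustment over all genes, threshold 0.05) in R 4.3.3, with the pup as a block between classes. The test was tried on simulated data with 200 genes changed by 1 on the log2 scale, picked among those averaging 20 CPM or more. It recovered 183 to 198 of them in the 7 comparisons by label, where 5.47 to 12.5% of calls were false. Between classes it recovered 196 to 199, where 6.16 to 9.26% were false. These shares describe simulated counts and do not measure the power for the 10 genes by label. Fbln2, Fbln5, Efemp1 and Mfap5 lay under 20 CPM in resting chondrocytes. Eln, Fbn2, Fbln1, Fbln5, Efemp1, Mfap4 and Mfap5 did so in hypertrophic chondrocytes. In the pups, Eln in perichondrial cells differed by 0.94 (SE 0.20) by label and did not pass. P-values by label measure the spread between pups of 1 litter, each a separate library. Those between classes, and those for the difference of the label effect, measure the spread over pups of the differences within a pup. DESeq2 1.42.0, library totals, no filter on low counts, a term for Xist, a mitochondrial limit of 20%, other clusterings, removal of doublet-like cells and each pup left out were tried as alternatives. File totals were 117746735 to 183322632 UMIs per pup.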

Additional observations from a re-analysis of the deposited data

Results flagged for a closer look

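Eln in tendon or ligament cells of pup 4 stood at 1654 CPM, while the other 4 pups lay between 392 and 635 CPM. The gap to the nearest pup was 0.808 of the whole range, above Dixon's 95% critical value of 0.71 for 5 samples. It was the 1 value marked in 40 groups checked, and chance alone marks about 1 group in 20. In the tendon or ligament cluster led by Kera and Tnmd, pup 4 held 2070 CPM and the other pups 461 to 619 CPM.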

How the results depend on the processing

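By label, 1 of the 10 genes was called in articular chondrocytes with DESeq2, where 0.0231% of all genes were called. Without the filter on low counts 1 was called there, where 0.279% of all genes were. In perichondrial cells the counts were 1 with DESeq2 (0.0229% of all genes) and 2 without that filter (0.258%). Also without that filter, Fbln2 and Fbln5 were called for the difference of the label effect, where 0.145% of all genes were called. Both pups with Xist carried the mutant label. With a term for Xist the difference by label therefore rests on pup 5 alone against pups 1 and 2. With a term for Xist the median log2 difference by label was -0.16 in articular, -0.23 in resting, -0.27 in proliferating and -0.19 in hypertrophic chondrocytes, -0.46 in tendon or ligament cells and -0.41 in all cells, and Eln reversed in resting chondrocytes (-0.48) and tendon or ligament cells (-0.24). In proliferating chondrocytes that median was -0.34 at clustering resolution 0.8 and -0.29 with the gene lists kept among the features. Leaving out 1 pup gave medians of -0.016 to 0.18 in articular, -0.15 to 0.26 in resting and 0.15 to 0.45 in hypertrophic chondrocytes, and -0.048 to 0.73 for Eln in resting chondrocytes. In perichondrial cells the differences by label ran from 0.51 to 1.11 for Eln, 0.34 to 1.33 for Fbln2 and 0.27 to 0.77 for Fbln5 over the settings run, and the median was 0.071 with the Xist term, 0.032 at resolution 2.5 and 0.13 to 0.40 with 1 pup left out. Efemp2 kept its direction by label in all settings run.

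Between articular and resting chondrocytes, Mfap4 reversed at resolution 0.8 (-0.27) and with the lists kept (-0.35), and Mfap5 at resolution 2.5 (-0.23). Between tendon or ligament and perichondrial cells, reversals were Eln (0.47), Fbn1 (0.26), Efemp2 (0.11) and Mfap5 (0.99, adjusted p = 0.0338) with the lists kept, Fbn1 (0.36), Efemp1 (-0.30) and Efemp2 (0.089) at resolution 0.8, Fbn1 (0.22) at the 20% mitochondrial limit, and Fbln5 (-0.17) at resolution 2.5, of which the 3 for Fbn1 and that for Mfap5 passed the test. The call for Fbln2 in that contrast was lost at resolution 0.8 (adjusted p = 0.0585) and with the lists kept (adjusted p = 0.168). Mean Fbn2 in perichondrial cells was 719 CPM at resolution 0.8, 804 at 2.5, 789 with the lists kept and 784 at the 20% limit. Fbln1 in tendon or ligament cells was 149.7 CPM at resolution 2.5, and Efemp2 in hypertrophic chondrocytes 161 CPM at resolution 0.8. The leading class stayed the same for every gene but Efemp1, which led in Tgfbi-expressing or hypertrophic chondrocytes in 6 settings. The cause was not tested. No paired analysis by label was possible because the pup numbers do not pair the labels. The small number of Efemp1 UMIs in some classes, such as articular chondrocytes and perichondrial cells, limits the sizes given there.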
